A study of Mus musculus with 165 samples.

Results

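The liver count table held 8 genes that textbooks list as held off in male hepatocytes by pulsatile growth hormone: Cyp2b13, Cyp2b9, Cyp2a4, Slc22a26, Sult1e1, Sult3a1, A1bg and Cux2. They were picked by symbol from 55471 gene rows, with their liver levels by age already known, so their differences between ages are a description, and the calls of the fit are not evidence for them. All 8 passed the filter on low counts, among 15579 genes kept. Cyp2b13, Sult1e1 and Sult3a1 had 3 counts or fewer in at least 14 of the 16 youngest livers, and entered the tested genes through the older ones. Growth hormone itself was not measured, so the name of the group is background.

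The pituitary of a male mouse releases growth hormone in pulses, while that of a female releases it almost continuously. In hepatocytes each pulse acts through the growth hormone receptor and the kinase JAK2 on the transcription factor STAT5b, which switches on genes typical of the male liver and, partly through repressors such as BCL6, keeps genes typical of the female liver low. Where pulses are lost or flattened, these female-predominant genes are known to rise and male-predominant genes such as the major urinary proteins to fall.

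Polyadenylated RNA of brains and livers was sequenced from untreated male mice of the inbred strain C57BL/6J/Ukj at 3, 9, 15, 24 and 28 months, with 16, 16, 16, 17 and 18 livers and 82 brains. Each mouse is named by age and replicate number, and the libraries were made in 3 preparations (preps) that each held every age. Only males were sequenced, so no female level stands beside these values. The total of a liver library ran from 5.82 to 57.5 M counts around a median of 32.9 M. Levels are CPM, reads of a gene scaled to the same total in every library after TMM scaling, and log2 fold changes with their standard error (SE) come from edgeR with age and prep as terms. No pair of the 649 same-age pairs of livers agreed within sampling noise. The 9 hepatocyte markers summed to between 52820 and 166300 CPM, the lowest in 28 months replicate 14, where the other livers of that age held at least 112300 CPM. That liver also had the highest sums of its age for the pancreas list (257.6 CPM against at most 16.79 in the others), the cholangiocyte list (213.2 against at most 80.8), the neuron list (55.15 against at most 18.49) and the acute phase list (41850 against at most 17570). At 24 months, replicates 5, 6 and 8 had acute phase sums of 73730, 43970 and 56430 CPM around an age median of 7291, and cholangiocyte sums of 519.5, 185.7 and 320.9 CPM around a median of 60.59. In whole tissue, fewer cells of a type and less RNA per cell cannot be told apart.

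All 8 genes were low at 3, 9 and 15 months in nearly every liver and had their highest medians at 28 months. At 24 months between 8 (A1bg) and 17 (Slc22a26) of 17 livers exceeded the highest 3-month liver. Their median log2 fold change was 6.89 from 3 to 28 months and 4.74 from 3 to 24 months, against 0.01 and -0.01 over all tested genes. In the edgeR fit 8 of 8 were called higher in both comparisons (adjusted p under 0.05), where 31.9% and 25% of all tested genes were. From 3 to 15 months 2 were called higher, Cyp2a4 and Slc22a26, with 3.06% of all genes, and from 3 to 9 months none was, with 1.53%. Between 24 and 28 months 7 were called higher, all but Cyp2b9, with 6.18% of all genes, and between 15 and 24 months 6 were, all but Cyp2a4 and A1bg, with 21.6%. No member was called lower in any of these 6 comparisons, where 3.16%, 4.26%, 24%, 30%, 14.4% and 9.13% of genes were from 3 to 9, 15, 24 and 28 months, from 15 to 24 and from 24 to 28 months. In either direction 4.69%, 7.32%, 49%, 61.9%, 36% and 15.3% of genes were called in the same 6 comparisons. Leaving out single livers changed some of these calls. Cyp2a4 was no longer called from 3 to 15 months without 15 months replicate 1 or 3 months replicate 15. Without 15 months replicate 1 Cyp2a4 and A1bg were called from 15 to 24 months, and without 24 months replicate 17 Cyp2b9 was called from 24 to 28 months. The choice of the genes used these contrasts, so nothing is read from the counts.

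Sums of markers of other cells are given over the same ages. The Kupffer cell and macrophage list summed to a median of 405.1 CPM (316.6 to 1160) at 3 months, 722.4 CPM at 24 months and 1002 CPM (515.8 to 4513) at 28 months, with 7 of 7 genes called higher at 28 months, where 31.9% of all tested genes were called higher and 30% lower. For the B lineage list these medians were 8.563 CPM (5.973 to 24.04), 32.59 and 32.86 CPM (14.14 to 339.2), with 6 of 6 called higher. The T lineage list had 5.496 CPM (3.436 to 22.63), 9.403 and 13.87 CPM (7.096 to 36.13), with 5 of 6 called higher, and the stellate cell list 351.4 CPM (293.4 to 450.5), 472.9 and 483.7 CPM (418.6 to 603.3), with 3 of 6. The fetal liver and liver tumour list went from 19.2 over 49.97 to 67.22 CPM (4 called higher, 1 lower), the pancreas list from 27.59 over 25.12 to 10.75 CPM (2 of 6 tested, both lower) and the endothelial list from 275.7 over 269.4 to 267.1 CPM (2 of 6 higher, about the share of all genes, and 1 lower). The cholangiocyte list had medians of 53.35, 60.59 and 54.29 CPM at 3, 24 and 28 months (2 of 5 tested genes called higher, 0 lower). Medians of the hepatocyte list were 124200, 135700 and 138100 CPM (1 of 9 called higher, 3 lower). No marker of these lists was at 0 in every liver, and their part in the results was not tested.

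**Figure D1:**
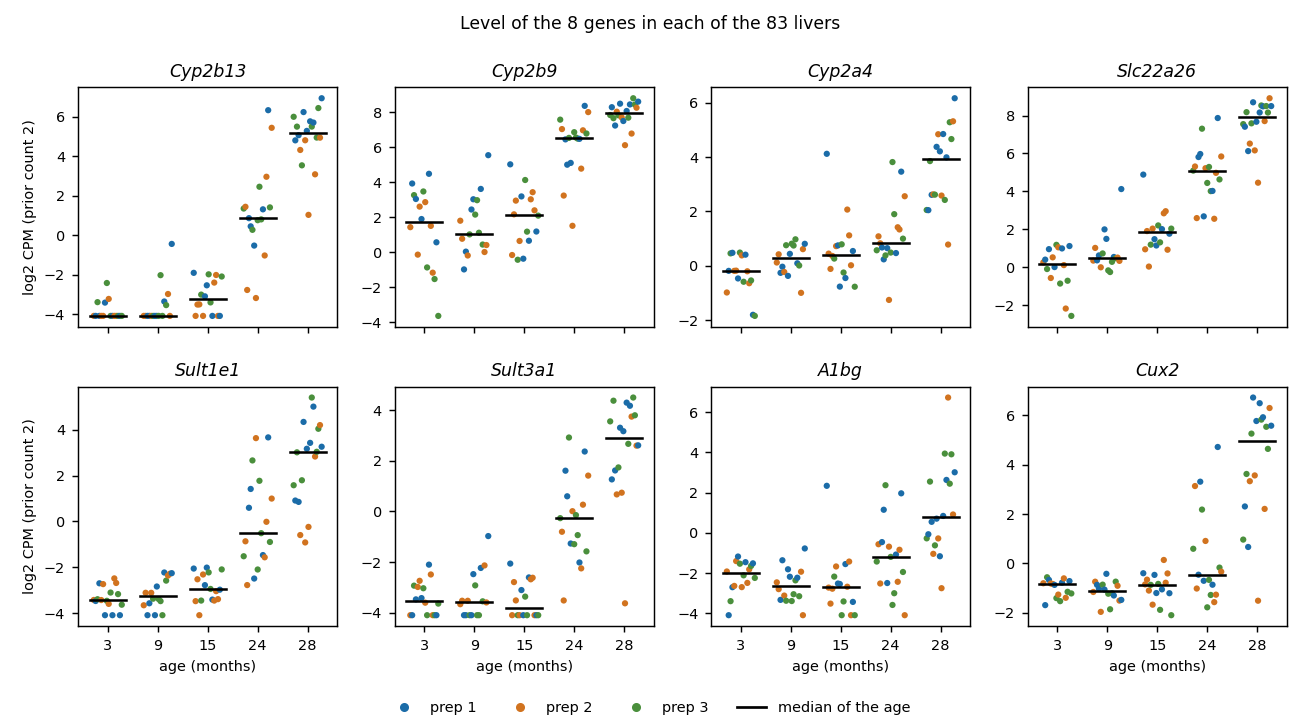
Level of each of the 8 genes in every liver, as log2 CPM with a prior count of 2, against age in months (points coloured by library preparation, bar at the median of the age). The 3 youngest ages lie low with single high livers at 9 and 15 months, 24 months is spread widely, and at 28 months 5 of the 8 genes have every liver above the highest 3-month liver.

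Cyp2b13 (ENSMUSG00000040583; GRCm38 chromosome 7, 26061497 to 26096197, plus strand) and Cyp2b9 (ENSMUSG00000040660; chromosome 7, 26173411 to 26210661, plus strand) encode cytochromes P450 of the family that oxidises drugs and steroids, and both are female-predominant in mouse liver. Their RefSeq promoters, 250 bases before to 50 after the start, are shown because the genes are near-copies with different levels. They matched at 298 of 300 bases (99.3%). The capitals mark the differing bases, C48T and T104C from Cyp2b13 to Cyp2b9, counted from 1 at the 5′ end of the window.
Cyp2b13 promoter (GRCm38.p6, chr7:26061245-26061544, plus strand): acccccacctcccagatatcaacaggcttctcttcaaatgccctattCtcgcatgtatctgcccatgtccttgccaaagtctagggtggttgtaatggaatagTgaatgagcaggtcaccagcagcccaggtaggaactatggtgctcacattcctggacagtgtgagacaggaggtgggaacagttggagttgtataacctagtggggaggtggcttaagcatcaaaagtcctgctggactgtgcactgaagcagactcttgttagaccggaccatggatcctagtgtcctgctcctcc
Cyp2b9 promoter (GRCm38.p6, chr7:26173159-26173458, plus strand): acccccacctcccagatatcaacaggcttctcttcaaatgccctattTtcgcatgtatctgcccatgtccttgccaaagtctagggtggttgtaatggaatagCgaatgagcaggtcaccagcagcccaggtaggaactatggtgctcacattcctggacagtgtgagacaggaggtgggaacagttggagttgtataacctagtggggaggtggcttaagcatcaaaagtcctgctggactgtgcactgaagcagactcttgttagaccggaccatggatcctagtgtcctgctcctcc

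Cyp2b13 was the gene nearest to silence in young livers. At 3 months it ran from 0 to 0.128 CPM with a median of 0, and 15 of 16 livers had 3 counts or fewer. The highest liver was at 0.677 CPM at 9 months (replicate 16) and at 0.208 CPM at 15 months (replicate 1). At 24 months the lowest liver had 0.0513 CPM, the median was 1.76 CPM and the highest had 80.6 CPM (replicate 15), followed by 43.4 CPM in replicate 17. The mean of that age was 9.18 CPM, and 4.72 CPM without replicate 15. Livers of 28 months ran from 1.98 CPM (replicate 10) over a median of 36.2 CPM to 123 CPM (replicate 18), and every liver lay above every 3-month liver. The fitted log2 fold change was 8.78 ± 0.89 (SE) at 24 months and 11.05 ± 0.87 at 28 months, both dependent on the prior count since the 3-month level is near 0. At 24 months it was 7.84 without replicate 15 of that age, 8.15 without replicate 17 and 9.50 without 3 months replicate 8, and at 28 months it was 11.77 without the latter. With each 3-month liver set to at least 3 counts, the 28-month mean was at least 434-fold higher.

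Cyp2b9 was already present in young livers and varied more among them than most of the other genes. At 3 months it ran from 0.0219 to 22.3 CPM with a median of 3.23 CPM, a coefficient of variation of 110%. The median was 2.04 CPM at 9 months and 4.32 CPM at 15 months, with single livers at 46.7 CPM (9 months replicate 16) and 32.5 CPM (15 months replicate 1). It ran from 2.79 CPM (replicate 8) over 92.6 to 329 CPM (replicate 15) at 24 months, when 15 of 17 livers exceeded the highest 3-month liver. The 28-month livers ran from 69.4 CPM (replicate 10) over 245 to 445 CPM, with every liver above every 3-month liver and a coefficient of variation of 38.8%, the smallest of the 8 genes at that age. The log2 fold change was 4.42 ± 0.55 at 24 months, 5.55 ± 0.58 at 28 months and 1.14 ± 0.46 between the 2 ages, beside 2.27 ± 0.48 between them for Cyp2b13, or 3.35 without 24 months replicate 15. The ranges of Cyp2b9 at 24 and 28 months overlapped widely.

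Counts of Cyp2b13 as a share of those of Cyp2b9 in the same liver had a median of 0% at 3 months, 2.01% at 24 months and 17.6% at 28 months (2.86% to 31.5%). The ranges overlapped between 24 and 28 months, and between 3 months (at most 1.16%) and 24 months (0.929% to 24.5%). The highest share was 7.14% at 9 months and 15.8% at 15 months. The difference in the share between ages was not tested. In the annotation, 1.18% of the 100-base windows of the Cyp2b9 transcript also occur in Cyp2b13, and the 9.29% of Cyp2b13 windows found elsewhere lie mainly in Gm45225 (8.5%). How the authors counted reads that fit several genes is not given in the sources used here. Cyp2b10, the Cyp2b gene that the xenobiotic receptor CAR controls, had means of 8.67 ± 7.57 CPM (SD, n = 16) at 3 months and 9.70 ± 6.30 CPM (n = 18) at 28 months, a log2 fold change of 0.12 ± 0.41 that was not called (edgeR adjusted p 0.809).

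Cyp2a4 (ENSMUSG00000074254; chromosome 7, 26307169 to 26315088, plus strand) encodes a steroid hydroxylase and lies on the same chromosome after the Cyp2b pair. At 3 months it ran from 0.219 over 0.814 to 1.34 CPM. It stayed near that level in most middle-aged livers, with medians of 1.15 CPM at 9 months and 1.27 CPM at 15 months, but 15 months replicate 1 had 17.4 CPM and the next liver of that age 4.14 CPM. The median was 1.72 CPM at 24 months, with a range of 0.359 (replicate 8) to 14.1 CPM (replicate 10). All livers of 28 months exceeded the 3-month livers, from 1.66 CPM (replicate 14) over 15.2 to 72.1 CPM (replicate 18). The log2 fold change from 3 months was 1.51 ± 0.45 at 15 months, 1.99 ± 0.44 at 24 months and 4.47 ± 0.46 at 28 months, and 2.48 ± 0.40 of it lay between 24 and 28 months. The 15-month value was 0.81, and not called, without replicate 1 of that age.

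Cyp2a4 shares 11.2% of its 100-base windows with its neighbour Cyp2a5, a far more abundant gene, and 61 exon bases (3.51%) overlap Gm42375 on the opposite strand. Its level is uncertain for this reason. Cyp2a5 itself went from a median of 173 CPM at 3 months to 530 CPM at 28 months. Cyp2a4 counts as a share of Cyp2a5 counts had a median of 0.403% (0.197% to 0.721%) at 3 months, 0.650% at 24 months and 1.81% (0.707% to 8.48%) at 28 months. The lowest 28-month share lay just under the highest 3-month share.

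Slc22a26 (ENSMUSG00000053303; chromosome 19, 7781041 to 7802667, minus strand) belongs to the organic anion transporters. At 15 months 12 of its 16 livers exceeded the 3-month livers, against at most 7 of 16 for any other member. It ran from 0.109 over 1.08 to 2.20 CPM at 3 months, with medians of 1.34 CPM at 9 months and 3.51 CPM at 15 months. 9 months replicate 16 had 17.3 CPM and 15 months replicate 1 had 29.5 CPM, each far above the rest of its age. At 24 months it ran from 5.81 CPM (replicate 13) over 34.1 to 234 CPM (replicate 15), and it was the only one of the 8 genes whose 24-month livers all exceeded the 3-month livers. At 28 months it ran from 21.9 CPM (replicate 10) over 247 to 482 CPM (replicate 17). The log2 fold change from 3 months was 2.13 ± 0.46 at 15 months, 5.39 ± 0.48 at 24 months and 7.71 ± 0.52 at 28 months. Of its 100-base windows 0.617% occur in another gene.

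Sult1e1 (ENSMUSG00000029272; chromosome 5, 87575969 to 87591594, minus strand) encodes the sulfotransferase that inactivates estrogens. It was at most 0.12 CPM at 3 months, 0.155 CPM at 9 months and 0.189 CPM at 15 months. At 24 months it ran from 0.0872 CPM (replicate 3) over 0.642 to 12.6 CPM (replicate 15), with 12.4 CPM in replicate 8. The oldest livers ran from 0.471 CPM (replicate 8) over 8.09 to 42.3 CPM (replicate 12), and all 18 livers exceeded the 3-month livers. In log2 the fold change was 5.74 ± 0.69 at 24 months and 7.70 ± 0.70 at 28 months, and the 28-month mean was at least 108-fold higher than a 3-month level set to at least 3 counts per liver.

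Sult3a1 (ENSMUSG00000069668; chromosome 10, 33857721 to 33879532, plus strand) encodes another sulfotransferase, strongly female-predominant. At 3 months it ran from 0 over 0.0278 to 0.175 CPM, and 9 months replicate 16 had 0.451 CPM. At 24 months it ran from 0.0291 CPM (replicate 3) over 0.774 to 7.49 CPM (replicate 6). Its 28-month livers had a median of 7.60 CPM and a highest value of 22.4 CPM (replicate 15), while replicate 10 stayed at 0.0225 CPM, within the 3-month range. The log2 fold change was 5.07 ± 0.64 at 24 months and 7.61 ± 0.64 at 28 months, with a 28-month mean at least 91.4-fold above the 3-month level set to at least 3 counts per liver. Neither sulfotransferase shares a 100-base window with another gene.

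A1bg (ENSMUSG00000022347; chromosome 15, 60896859 to 60923012, minus strand) encodes a secreted plasma glycoprotein that is female-predominant in mice. Its levels were low in most livers, and the 3-month range overlapped that of every other age, at 28 months through replicate 10 alone. At 3 months it ran from 0 over 0.190 to 0.385 CPM. The 15-month livers had a median of 0.0955 CPM, except for replicate 1 at 5.01 CPM. At 24 months it ran from 0 over 0.379 to 5.12 CPM (replicate 6), and 8 of 17 livers exceeded the 3-month livers. At 28 months it ran from 0.0901 CPM (replicate 10) over 1.66 CPM to 106 CPM in replicate 14, with the next liver at 15.3 CPM. That single liver set the mean, which was 9.58 CPM with it and 3.89 CPM without it, and moved the log2 fold change from 5.75 ± 0.79 to 3.97. It was also the liver with low hepatocyte markers and high pancreas, cholangiocyte, neuron and acute phase sums, whose part in the result was not tested. At 24 months the log2 fold change was 2.24 ± 0.76, and 1.44 without replicate 6. Of its exon bases 395 (16.5%) overlap 4930402D18Rik on the opposite strand, so its counts may hold reads of that gene.

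Cux2 (ENSMUSG00000042589; chromosome 5, 121856366 to 122050102, minus strand) encodes a homeodomain transcription factor, known in female liver as a repressor of male-predominant genes. It was steady in young livers, from 0.252 over 0.496 to 0.620 CPM at 3 months, a coefficient of variation of 26.4%. At 24 months its median of 0.670 CPM was hardly higher, and 9 of 17 livers exceeded the 3-month livers, led by 26.2 CPM in replicate 15 and 9.85 CPM in replicate 5. Levels at 28 months ran from 0.293 CPM (replicate 10) over 31.4 to 105 CPM (replicate 7), and 17 of 18 livers exceeded the 3-month livers. The log2 fold change was 2.71 ± 0.53 at 24 months (2.15 without replicate 15) and 6.18 ± 0.57 at 28 months, with 3.47 ± 0.46 between them, or 4.08 without 24 months replicate 15.

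Of the promoters of the 8 genes, 3 held a match to the STAT5 motif TTCNNNGAA and also to the core ATTGAT bound by HNF6 (Onecut1), searched on both strands over the same 300 bases. They are shown because STAT5 carries the growth hormone signal, with the matches in capitals. The STAT5 match began at -141, -109 and -84 from the start in Slc22a26, Sult3a1 and A1bg, and the HNF6 core at -58, -74 and -150. No match was found in the first RefSeq promoter of the other 5 genes. Of 32851 RefSeq promoters, 8.3% held the STAT5 motif and 7.54% the HNF6 core. A match describes these letters and is no evidence of binding.
Slc22a26 promoter (GRCm38.p6, chr19:7802618-7802917, minus strand): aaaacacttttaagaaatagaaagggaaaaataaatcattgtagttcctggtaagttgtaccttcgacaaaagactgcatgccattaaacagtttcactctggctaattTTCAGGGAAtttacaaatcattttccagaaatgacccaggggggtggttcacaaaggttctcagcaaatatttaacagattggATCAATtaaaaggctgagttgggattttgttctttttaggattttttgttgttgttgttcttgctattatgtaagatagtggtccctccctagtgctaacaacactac
Sult3a1 promoter (GRCm38.p6, chr10:33857472-33857771, plus strand): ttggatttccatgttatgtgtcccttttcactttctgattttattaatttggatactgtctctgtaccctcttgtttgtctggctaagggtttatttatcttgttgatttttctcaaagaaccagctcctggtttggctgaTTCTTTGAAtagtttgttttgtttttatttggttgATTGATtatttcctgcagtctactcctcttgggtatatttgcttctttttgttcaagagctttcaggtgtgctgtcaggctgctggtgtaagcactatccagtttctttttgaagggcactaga
A1bg promoter (GRCm38.p6, chr15:60921221-60921520, minus strand): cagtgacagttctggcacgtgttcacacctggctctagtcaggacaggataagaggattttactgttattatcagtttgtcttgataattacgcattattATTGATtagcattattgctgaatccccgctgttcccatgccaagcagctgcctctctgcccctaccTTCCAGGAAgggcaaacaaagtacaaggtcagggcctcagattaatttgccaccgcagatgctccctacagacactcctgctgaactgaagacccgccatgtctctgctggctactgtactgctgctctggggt

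The 8 genes reached very different levels. Per kilobase of exon, the 28-month medians in CPM were 131 for Cyp2b9, 83.9 for Slc22a26, 19.3 for Cyp2b13, 8.72 for Cyp2a4, 6.58 for Sult3a1, 6.52 for Sult1e1, 3.12 for Cux2 and 0.690 for A1bg. The ranges of all neighbours in this order overlapped across the 18 livers. Per kilobase at 3 months, Cyp2b9 again had the highest median, 1.72 CPM, and Cyp2b13 the lowest, 0 CPM.

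Mouse by mouse, the number of the 8 genes above the highest 3-month liver is given as a description. At 28 months 17 of 18 mice had all 8 genes above the highest 3-month liver, and replicate 10 had 5 of 8. At 24 months the median mouse had 7 of 8 genes above, 3 mice had all 8 and replicate 3 had only 2. At 15 months the median was 1.5 genes, but replicate 1 had all 8, and at 9 months the median was 1 gene, with 7 in replicate 16. For comparison, 0.629% of all tested genes had every 28-month liver above every 3-month liver, and 5 of the 8 did, Cyp2b13, Cyp2b9, Cyp2a4, Slc22a26 and Sult1e1. At 24 months the share of all genes was 0.315%, and Slc22a26 was the 1 member. At 15 and 9 months no member was among the 0.0963% and 0.0514% of genes.

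The livers that stood apart in the 8 genes were also compared with the rest of their age in 4 genes that pulsatile growth hormone drives: Hsd3b5, a steroid dehydrogenase, Slco1a1, an organic anion uptake transporter, Elovl3, a fatty acid elongase, and Mup20, a major urinary protein. 15 months replicate 1 had the lowest value of its age for all of them, with 15.8 CPM of Hsd3b5 against a median of 210 CPM and 71.9 CPM of Slco1a1 against 457 CPM. Its sum of the fetal liver and liver tumour list was also the highest of its age, 160.4 CPM against a median of 27.65, as was its B lineage sum, 59.42 CPM against 24.68, and its pancreas sum of 13.58 CPM was the lowest, against 33.52. Their part in the result was not tested. 9 months replicate 16 had the lowest Hsd3b5 (94.2 CPM), Slco1a1 (241 CPM) and Elovl3 (385 CPM) of its age, the last close to the 397 CPM of replicate 13. Its Mup20, 1068 CPM, lay above the 1036 CPM of replicate 7, and its acute phase sum of 7563 CPM was the highest of its age, its part again not tested.

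The reverse held at 28 months in replicate 10, which had the lowest Cyp2b13, Cyp2b9, Slc22a26, Sult3a1, A1bg and Cux2 of its age, but not the lowest Cyp2a4 or Sult1e1. It had 48 CPM of Hsd3b5 where no other liver of that age exceeded 0.805 CPM, 144 CPM of Slco1a1 where the next had 24.0, and 1525 CPM of Mup20, within the 3-month range. Its acute phase sum, 4573 CPM, was the lowest of its age. At 24 months, replicates 3 and 7 had 178 and 211 CPM of Hsd3b5, within the 3-month range, beside 0.0872 and 0.635 CPM of Cyp2b13, and 5.96 and 6.35 CPM of Slc22a26. Replicate 15 had the highest Cyp2b13, Cyp2b9, Slc22a26, Sult1e1 and Cux2 of its age and the lowest Hsd3b5 (0.0803 CPM), Elovl3 (0.696 CPM) and Mup20 (11.5 CPM).

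**Figure D2:**
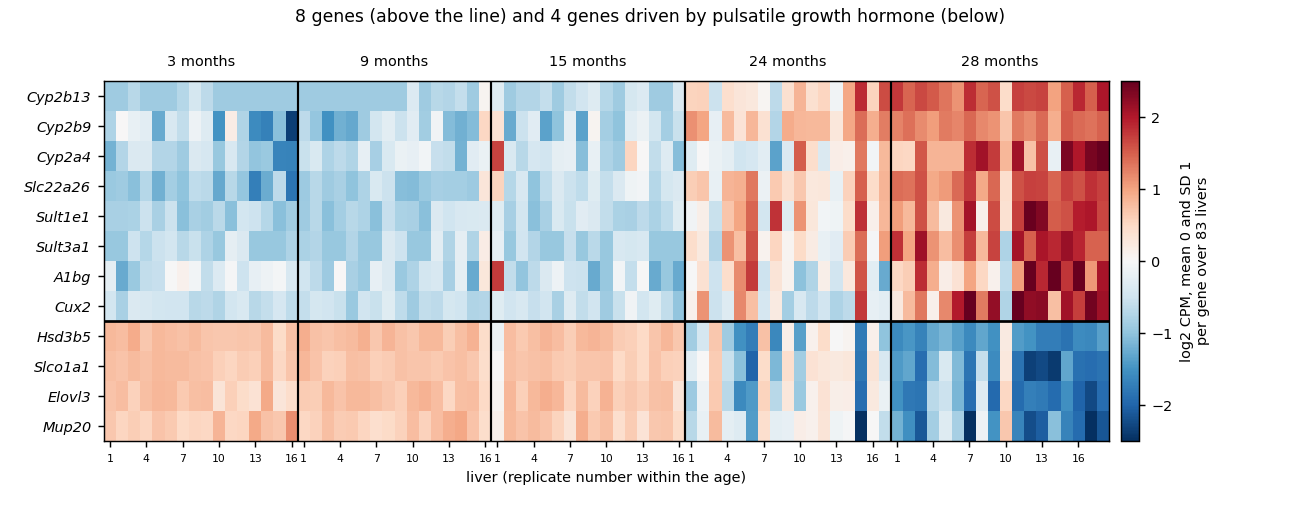
Each column is 1 of the 83 livers in order of age and replicate number, each row a gene, and the colour is log2 CPM scaled to mean 0 and SD 1 per gene (red high, blue low); the line separates the 8 genes from 4 driven genes. 9 months replicate 16 and 15 months replicate 1 are redder above and bluer below the line than most other livers of their ages, though not for every gene. 28 months replicate 10 is the reverse for most of the genes.

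The 8 genes were higher in old livers in each of the 3 library preparations. From 3 to 28 months every log2 fold change was positive in each prep fitted alone, between 3.74 ± 1.08 (A1bg, prep 1) and 12.37 ± 1.71 (Cyp2b13, prep 1). From 3 to 24 months they were positive too, between 0.91 ± 1.33 (A1bg, prep 2) and 10.65 ± 1.78 (Cyp2b13, prep 1). The age by prep interaction, which the choice of genes did not use, was called for none of the 8 (edgeR quasi-likelihood test, adjusted p 0.828 to 0.979 for 24 months and 0.616 to 0.972 for 28 months). Over all genes it called 0 at 24 months (982 at an unadjusted p under 0.05) and 17, or 0.109%, at 28 months. The size of the change between preps was less even for Cyp2b13, at 6.28 ± 0.80 in prep 3 at 24 months, and for A1bg, at 6.96 ± 1.27 in prep 2 at 28 months, the prep that held 28 months replicate 14.

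**Figure D3:**
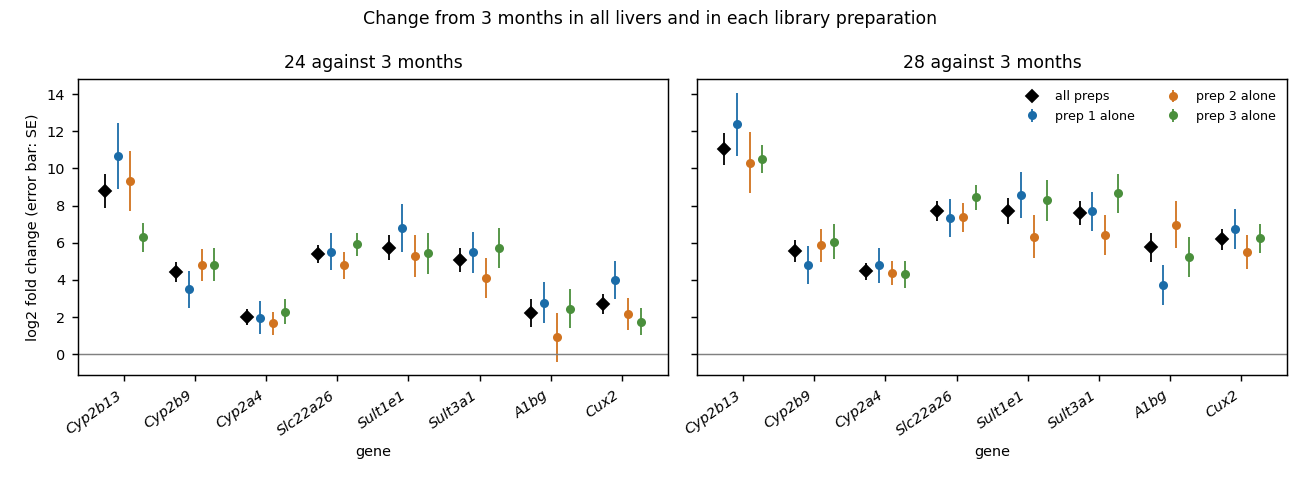
Log2 fold change from 3 months of the 8 genes at 24 and 28 months, over all livers (black diamonds) and in each library preparation fitted alone (coloured points), with SE as error bars. All values lie above 0, and the preps overlap for most genes.

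Across mice of the same age the genes could be compared without the difference between ages that guided their choice. Pearson's r of log2 CPM was taken over the 17 livers of 24 months and the 18 of 28 months, for 28 pairs among the 8 genes and 32 pairs of these with Hsd3b5, Slco1a1, Elovl3 and Mup20, 120 correlations in all, each with 100000 permutations and Benjamini-Hochberg adjustment over the 120. The values of a mouse come from 1 library and share its depth and scaling. The share of other gene pairs that would pass was not computed, so none stands beside the counts below. At 28 months r between the 8 genes had a median of 0.611, 27 of 28 were positive and 20 passed, 7 of them also without the 2 farthest mice. With the driven genes all 32 were negative, with a median of -0.675, and 27 passed, 14 of them also without the 2 farthest mice. These are the 2 mice farthest from the median of the first-listed gene of a pair, always a member, so they differ between pairs. Mice far out in the partner gene alone were kept. At 24 months the medians were 0.518 and -0.666, 14 and 20 pairs passed, 4 and 12 of them also without the 2 farthest mice, and all 32 pairs with driven genes were again negative.

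Slc22a26, Sult1e1 and Sult3a1 were positively correlated across mice at both ages, less evenly at 28 months. At 24 months r was 0.909 for Slc22a26 and Sult3a1 (Spearman's rho 0.904, permutation p adjusted 0.000171 and 0.00024, 0.891 without the 2 mice farthest from the median of Slc22a26). It was 0.819 for Slc22a26 and Sult1e1 and 0.798 for Sult1e1 and Sult3a1 (adjusted permutation p 0.000343 and 0.000643). At 28 months r was 0.856 for Slc22a26 and Sult1e1 (rho 0.882, adjusted permutation p 0.000171) and 0.921 without the 2 farthest mice. Slc22a26 and Sult3a1 had r of 0.852 at that age but rho of 0.596 (adjusted permutation p 0.000444 and 0.0275), with r of 0.679 without the 2 farthest mice. Sult1e1 and Sult3a1 had r of 0.699 and rho of 0.587 (adjusted permutation p 0.00213 and 0.029), with r of 0.884 within prep 1 and 0.061 within prep 3.

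Every pair of these genes with a driven gene had a negative r that passed at both ages, less firmly for Sult3a1 at 28 months. Cux2 also passed with every driven gene at both ages, but with none of them without the 2 farthest mice. Its adjusted permutation p was then 0.0691 to 0.0865 at 24 months and 0.0632 to 0.812 at 28 months. A1bg passed with every driven gene at 28 months, and without the 2 farthest mice only with Slco1a1 (0.0113) and Mup20 (0.0384). At 28 months Slc22a26 and Mup20 had r of -0.937 and rho of -0.926 (adjusted permutation p 0.000171 and 0.00024), and -0.938 without replicates 4 and 10. Within preps 1 and 3, which held at least 6 livers of that age, r was -0.946 and -0.837. Sult1e1 and Slco1a1 had r of -0.876 at 28 months and -0.907 at 24 months, and -0.833 and -0.885 without the 2 mice farthest from the median of Sult1e1 at each age. Sult3a1 and Mup20 had r of -0.747 at 28 months but rho of -0.519 (adjusted permutation p 0.00214 and 0.0555), and r of -0.471 without the 2 farthest mice (adjusted permutation p 0.128). With Elovl3 its rho was -0.527 (adjusted permutation p 0.0516). Within prep 3 of that age r was -0.138 for Sult3a1 and Slco1a1 and -0.043 for Sult1e1 and Hsd3b5, against -0.849 and -0.749 within prep 1. Mice of one age that kept more Mup20 or Slco1a1 RNA tended to have less Slc22a26 and Sult1e1 RNA. The smallest p that the permutations could give was 1e-05.

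**Figure D4:**
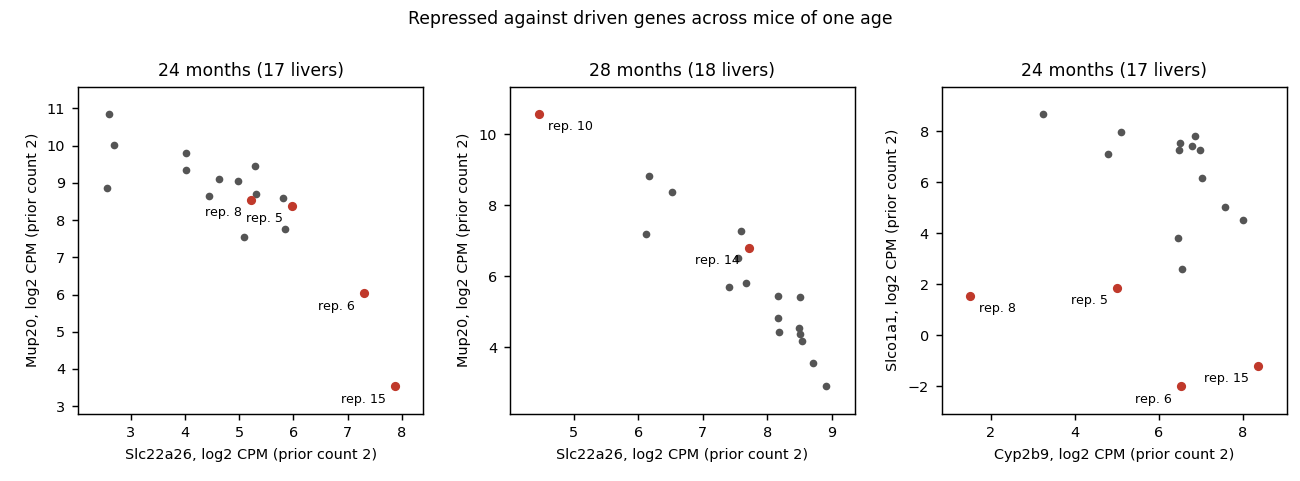
Log2 CPM of Slc22a26 against Mup20 in the livers of 24 and of 28 months, and of Cyp2b9 against Slco1a1 in the livers of 24 months, 1 point per mouse. Red points are replicates 5, 6, 8 and 15 at 24 months and replicates 10 and 14 at 28 months. Slc22a26 falls along the Mup20 axis at both ages (r -0.830 and -0.937), while Cyp2b9 and Slco1a1 show no line at 24 months (r -0.085).

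Among the P450 genes, Cyp2b13 and Cyp2b9 went together at 24 months (r 0.874, rho 0.875, adjusted permutation p 0.000171 and 0.000267, 0.905 without replicates 15 and 17). Within preps 2 and 3 of that age r was 0.943 and 0.097. At 28 months r was 0.766 (adjusted permutation p 0.00261), but 0.351 without replicates 10 and 14, the 2 mice lowest in both genes. Within preps 1 and 3, which held neither mouse, r was 0.633 and 0.117 at that age, and rho over all mice was 0.532 (adjusted permutation p 0.0513), so the call at that age rests on these mice. With Slco1a1 at 24 months neither passed: r was -0.268 for Cyp2b13 and -0.085 for Cyp2b9. Without replicates 5, 6 and 8, the livers with high acute phase sums, it was -0.747 and -0.611, a choice of mice made after their values were seen. In replicate 8 Cyp2b9 was at 2.79 CPM and Cyp2b13 at 0.0513 CPM, the lowest of the age, beside 12.4 CPM of Sult1e1 and 0.154 CPM of Hsd3b5. The part of the acute phase and cholangiocyte genes in this was not tested.

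Cyp2a4 passed with 3 of its 11 partners at 28 months and 2 of 11 at 24 months. At 28 months it had r of -0.0004 with A1bg, -0.195 with Hsd3b5 and -0.133 with Slco1a1, and it passed only with Cux2 (0.626), Cyp2b9 (0.610) and Cyp2b13 (0.537), with adjusted permutation p of 0.0114, 0.0125 and 0.029. Without the 2 farthest mice Cux2 still passed (0.0362), and Cyp2b9 (0.0865) and Cyp2b13 (0.154) did not, as adjusted permutation p. At 24 months it passed only with Cyp2b13 (r 0.735, adjusted permutation p 0.00409) and Cyp2b9 (r 0.602, 0.0223), and r fell to 0.561 and 0.438, neither passing, without the 2 mice farthest from the median of Cyp2b13 and of Cyp2b9. Over all pairs, 16 of 34 still passed at 24 months and 21 of 47 at 28 months when the 2 farthest mice were left out. With Spearman's rho 28 passed at 24 months and 30 at 28 months.

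**Figure D5:**
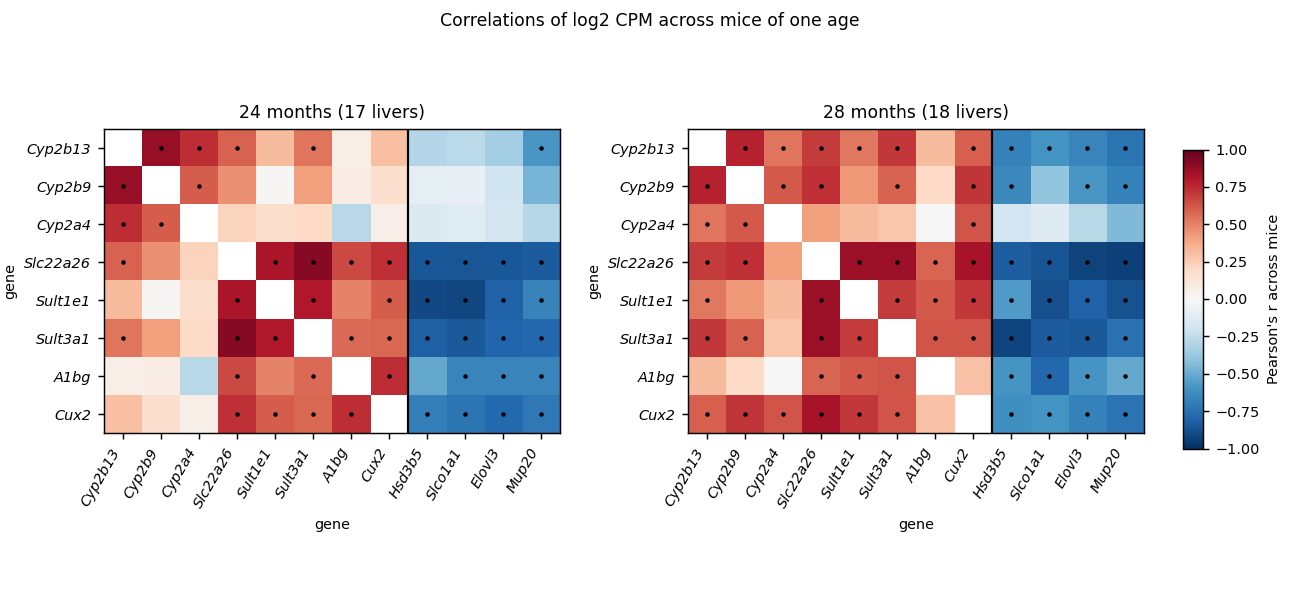
Pearson's r across mice of 24 months (17 livers) and of 28 months (18 livers) for every pair of the 8 genes, and of these with 4 driven genes right of the line; dots mark pairs with an adjusted permutation p under 0.05. All pairs with driven genes are negative at both ages, and Slc22a26, Sult1e1 and Sult3a1 have the deepest colours.

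Most other genes with the same textbook behaviour rose too, but the list was written with earlier results of these data known. Of 34 further female-predominant genes 24 were tested, and from 3 to 28 months 20 rose and 0 fell, by DESeq2 as well, where 31.9% and 30% of all tested genes did, with a median log2 fold change of 1.81 (edgeR, adjusted p under 0.05). Hao2, a peroxisomal oxidase, rose by 5.65 ± 0.49, the transporter Slc22a27 by 5.51 ± 0.34 and the P450 gene Cyp2c69 by 4.65 ± 0.55. Cyp4a10, Cyp4a14, Cyp39a1 and Cyp2b10 did not pass, at -0.53, -0.62, 0.16 and 0.12. From 3 to 24 months 15 of the list rose and 2 fell, with 25% and 24% of all genes, the 2 being Cyp4a10 (-1.20 ± 0.31, edgeR adjusted p 0.000884) and Cyp4a14 (-1.62 ± 0.37, 0.000193). From 3 to 15 months 4 rose and 1 fell, with 3.06% and 4.26% of all genes. The 10 genes not tested, among them Sult2a1 with means of 0.0170 CPM at 3 months and 5.59 CPM at 28 months, had too few counts in most livers. At 28 months the median of Sult2a1 was only 0.352 CPM, with an SD of 11.1 CPM and 6 livers at 3 counts or fewer.

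Genes that pulses are known to drive, listed with earlier results known, went the other way. All 25 members of that list were tested and fell from 3 to 28 months, by a median log2 fold change of -3.46 (edgeR, adjusted p under 0.05; 30% of all tested genes fell). Fitted log2 fold changes were -7.17 ± 0.60 for Mup11, -6.67 ± 0.78 for Hsd3b5, -6.28 ± 0.72 for Slco1a1 and -6.07 ± 0.72 for Mup7, reads of the Mup genes being hard to assign because the genes are near-copies. At 24 months 22 of the 25 had fallen, with 24% of all genes, and at 15 months 2 had fallen and 2 had risen, with 4.26% and 3.06% of all genes. DESeq2 called 23 of the 25 at 28 months.

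The growth hormone signalling genes changed in both directions. Of 12, 4 rose, 4 fell and 4 did not pass at 28 months, shares near the 31.9% and 30% of all tested genes that rose and fell. Ghr, the receptor, fell from 553 ± 81.2 CPM (SD, n = 16) to 345 ± 81.7 CPM (n = 18; -0.67 ± 0.08), and Stat5a fell by 0.46 ± 0.11. Stat5b was at 75.1 ± 19.3 and 67.7 ± 12.7 CPM and did not pass (-0.15 ± 0.09, edgeR adjusted p 0.163), and neither did Igf1 (-0.09 ± 0.08), Socs2 (0.41 ± 0.30) or Cish (0.52 ± 0.46), which growth hormone signalling induces. Bcl6, the repressor of female-predominant genes, fell from 69.9 ± 42.9 to 17.8 ± 15.7 CPM (-2.0 ± 0.39). The inhibitors Socs3 (2.02 ± 0.35) and Socs1 (1.29 ± 0.33) rose, as did Igfbp3 (0.65 ± 0.12) and Jak2 (0.27 ± 0.07), and Igfals fell by 0.41 ± 0.10. Socs3 is also induced by inflammation, and all 8 acute phase genes rose between the same ages, the list sum going from a median of 3421 to 10600 CPM. Their part in the result was not tested.

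Among 15 hepatocyte transcription factors and nuclear receptors 4 rose and 5 fell. Onecut1, which encodes HNF6, fell (-1.56 ± 0.42), and so did Foxa1 (-1.17 ± 0.18), Cebpa (-0.60 ± 0.10) and Hnf4a (-0.29 ± 0.09), while the estrogen receptor Esr1 (0.73 ± 0.13) was among those that rose. Of 19 targets of CAR and PXR 7 rose and 6 fell, among them Abcb1a (1.46 ± 0.16), Cyp2c37 (1.39 ± 0.20) and Por (1.29 ± 0.17) upwards and Cyp2c55 (-1.02 ± 0.27) and Ces2a (-0.87 ± 0.14) downwards. The shares of all tested genes that rose and fell were 31.9% and 30%.

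To find the genes most like the 8, their scaled log2 CPM was averaged per liver and set against 12750 other genes averaging 1 CPM or more, with Pearson's r as a description. Over the 83 livers the highest values of r included 0.952 for Cyp2c39, 0.935 for Slc22a27, 0.922 for Nt5e and 0.895 for Fmo2. The lowest was -0.947 for Mup14, -0.946 for Mup20, -0.945 for Slco1a1, -0.942 for Mup21 and -0.941 for Cyp2d9. Within the 18 livers of 28 months the highest included Slc22a27 (0.966), Cyp2c39 (0.959), Fkbp5 (0.895) and Cyp2c68 (0.889). The lowest were Mup21 (-0.917), Mup20 (-0.899), Mup-ps19 (-0.880), Nhsl1 (-0.872) and Slc22a28 (-0.870). These livers share the age trend in the first case and single mice such as replicate 10 in the second.

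In the brain, which the choice of genes did not use, 7 of the 8 were too low to test. Cyp2b9, Cyp2a4, Slc22a26, Sult1e1, Sult3a1 and A1bg had 3 counts or fewer in all 82 brains, and Cyp2b13 in 77 of 82, with at most 0.172 CPM. Cux2, which marks upper-layer neurons of the cortex, was at 21.3 to 98.7 CPM in every brain. Its mean was 40.1 ± 13.5 CPM (SD, n = 15) at 3 months and 39.8 ± 16.6 CPM (n = 18) at 28 months, a log2 fold change of -0.04 ± 0.19 that was not called (edgeR adjusted p 0.896), where 28.3% of tested brain genes were. None of the 6 brain comparisons between ages called it, with edgeR adjusted p of at least 0.619. The share of all brain genes called was counted from 3 to 28 months only. The difference between liver and brain in the change of Cux2 was not tested.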

How the data were processed

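The authors deposited 1 table of whole-number read counts per gene for the livers and 1 for the brains, not normalized. Per the submitters' processing notes, the tools were cutadapt 2.8, HISAT2 2.1.0, SAMtools 1.9 and featureCounts of Subread 2.0.1, on GRCm38.p6 (mm10). The handling of strand and of reads that fit several genes is not given in the sources used here. Of 55471 identifiers 55144 matched a symbol.

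Each tissue was fitted with edgeR 4.0.16 (R 4.3.3): filterByExpr by age, TMM scaling, and a quasi-likelihood fit with age and prep over all its samples. P-values were adjusted by Benjamini-Hochberg over all genes tested, and a gene was called under 0.05. SE is the absolute log2 fold change over the square root of F. DESeq2 1.42.0 and other settings were alternatives. The fit was tested on simulated data. Each mouse is a separate sample, so the spread is between animals. Floors (3 counts) cover counting error only, since PCR copies were not told apart. Correlations used log2 CPM with a prior count of 2.

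Members, lists and tests were chosen with earlier results of these data known. Named were all 8 members, all signalling genes and 4 driven genes, and from each list up to 4 genes that rose and 4 that fell, taken by size where called, averaging 1 CPM or more, and going one way in all preps. Genes of the female-predominant list that did not pass or were not tested, and Cyp2a5, were named after their values were seen. Some genes that this rule takes are not reported here. Gene positions and transcripts came from GENCODE vM21 and promoters from RefSeq GRCm38.p6, with all 8 genes matched.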

Additional observations from a re-analysis of the deposited data

How the results depend on the processing

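The log2 fold changes of the 8 genes at 24 and 28 months kept their sign in all 189 values from other settings and all 536 values from fits without 1 liver. Of the first, 185 stayed within 1 SD between livers, and 4 moved further: Cyp2b13 at 24 months (10.65 in prep 1 and 6.28 in prep 3) and at 28 months (12.37 in prep 1), and A1bg at 28 months (3.74 in prep 1). Of the second, 1 moved further, A1bg without 28 months replicate 14 (3.97). Depth limits Cyp2b13, Sult1e1 and Sult3a1 at the 3 youngest ages, where most livers had 3 counts or fewer.

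Counts over all genes moved more, mostly where fewer livers were fitted. With only the 2 ages compared, 342 genes were called from 3 to 9 months (731 with all livers), 708 from 3 to 15 (1140), 1152 from 24 to 28 (2385) and 3059 in the brain from 3 to 28 (5291). Preps 1, 2 and 3 alone called 12, 12 and 3 genes from 3 to 9 months, 58, 64 and 14 from 3 to 15, and 3, 2630 and 1290 from 15 to 24 (5609). From 3 to 24 months prep 1 called 906 and prep 2 2443 (7636), from 3 to 28 months 6198 and 2457 (9639), and from 24 to 28 months prep 2 called 0 (2172 at an unadjusted p under 0.05) and prep 3 198. Leaving out 1 liver gave 7139 to 7943 genes from 3 to 24 months, 9356 to 9776 from 3 to 28, 4827 to 6023 from 15 to 24, 295 to 1067 from 3 to 9, 609 to 1349 from 3 to 15 and 1886 to 3615 from 24 to 28. The last 4 comparisons were refitted after the data were seen. Counts moved by over 1.5 times without 3 months replicates 10, 13, 15 or 16 (315, 313, 350 and 295 genes from 3 to 9 months, 738, 609, 692 and 636 from 3 to 15) and, from 24 to 28 months, without 24 months replicate 13 (3615). The age by prep interaction called 1 gene at 24 months without the filter and 1 without replicates 5, 6 and 8 (0 otherwise). At 28 months (17) it called 27 without the filter, 0 with the replicate block (675 unadjusted) and 0 without replicates 10 and 14 (1294 unadjusted). Of the correlations, 16 passed at 24 months without the 2 farthest mice (34), and 21 at 28 months (47), or 28 without replicates 10 and 14. These replicates and 24 months replicates 5, 6 and 8 were chosen after the data were seen. The cause of these differences was not tested.

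Replicate numbers recur at each age but do not pair mice. Deviations from the age mean correlated at -0.00499 on average between livers with the same number, over 161 pairs, and at 0.00214 between others, and 8 of 82 livers were closest to their own number. With the replicate block 7571 genes were called from 3 to 24 months and 9489 from 3 to 28 months, and the log2 fold changes of the 8 genes at 28 months ran from 3.94 (Cyp2a4) to 11.44 (Cyp2b13). It called 641 genes from 3 to 9 months, 1021 from 3 to 15, 5578 from 15 to 24, 2140 from 24 to 28 and 4839 in the brain.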
